A study of Homo sapiens with 9 samples.

Results

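Strong H3K27ac regions lacking EZH2 are stretches of chromatin in LNCaP cells that carry much acetylation of lysine 27 on histone H3 and no listed EZH2 peak. They were chosen by control H3K27ac of at least 75.1 normalised tags per region, on chromosomes 1 to 22 and X, and by the absence of an overlapping EZH2 peak in the control and in the knockdown list. This rule gave 8882 regions, out of 14313 equally strong regions and 58134 control H3K27ac regions in all. The other 5431 strong regions held an EZH2 peak and serve as the comparison. At this minimum, 25.1% of the control regions on these chromosomes counted as strong.

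LNCaP is an established human prostate cancer line of luminal type. EZH2, H3K27ac and H3K27me3 were mapped by chromatin immunoprecipitation with sequencing in cells infected with a lentivirus carrying a short hairpin against EZH2 (shEZH2) and in cells with the empty vector plko.1 (control). Cells were fixed with 1% paraformaldehyde 2 to 3 days after infection, and chromatin was sheared to 200 to 500 bp. Each of the 6 groups was 1 library, so differences between shEZH2 and control have no replicate check and no p-value is given. Every 95% interval covers counting error over regions, which are not replicates. Total tags were 22175405 in shEZH2 and 17438009 in control for H3K27ac, and 14514395 in shEZH2 and 13331155 in control for EZH2. For H3K27me3 they were 26241104 in shEZH2 and 33289172 in control, and the authors scaled each library to 10000000. The EZH2 list was shorter after knockdown, with 9493 peaks in shEZH2 and 23060 in control. The limits differed, since a call needed 45.6 normalised tags per kb in shEZH2 and 36.9 in control. The lengths of the lists therefore do not measure the effect of the knockdown alone. No annotation or sequence of hg19, the build of the lists, was used here, so regions are given by position, without genes or sequence, and the LNCaP label was not checked at marker genes.

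EZH2 is the enzyme of Polycomb repressive complex 2 that methylates lysine 27 of histone H3, and the trimethylated form (H3K27me3) marks silenced genes. Acetylation of the same lysine, placed by the coactivators p300 and CBP, marks active promoters and enhancers, and a single histone tail cannot carry both at that position. The title of the series asks whether EZH2 also acts as an activator, independently of Polycomb and of methylation. Acetylated regions without EZH2 are the counterpart against which EZH2 at acetylated chromatin can be described.

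Most strong acetylated regions had no listed EZH2 peak, but fewer lacked one than among regions of all strengths. The 8882 regions were 62.1% (95% exact binomial interval 61.3 to 62.9) of the strong regions, while 86.8% of all 56941 control regions on these chromosomes overlapped no EZH2 peak. These 2 shares were not matched for width, and a wider region has more room to overlap a peak. The median width was 1730 bp in strong regions lacking EZH2, 1697 bp in those holding it and 428 bp over the whole control list. The tags that chose the regions also differed between them, with a median of 154 normalised tags (152 to 157) in regions lacking EZH2 and 239 (233 to 244) in regions holding it. Among the regions lacking EZH2, 90% lay between 79.7 and 537 tags, and the highest value was 7944.7. At the minimum itself, the 5 regions just inside it on chromosome 1 each held 75.1 tags and the 5 regions without EZH2 just outside it each held 74.5, the next lower value in the list. Their widths were 803 to 1545 bp inside the minimum and 575 to 1804 bp outside it, so the ranges overlapped.

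Regions lacking and holding EZH2 were of nearly the same width when pooled, but at equal tags those lacking EZH2 were wider and less densely acetylated. The median width was 1730 bp (1706 to 1751) in regions lacking EZH2 and 1697 bp (1676 to 1722) in regions holding it. When all strong regions were split by tags into 10 classes of equal size, the median was wider in regions lacking EZH2 in 10 of 10 classes, and the intervals of the medians did not overlap in any of them. The ratio of medians, weighted by the number of regions lacking EZH2, was 1.24-fold (1.23 to 1.26), and ran from 1.23-fold to 1.26-fold over the classes.

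**Figure D1:**
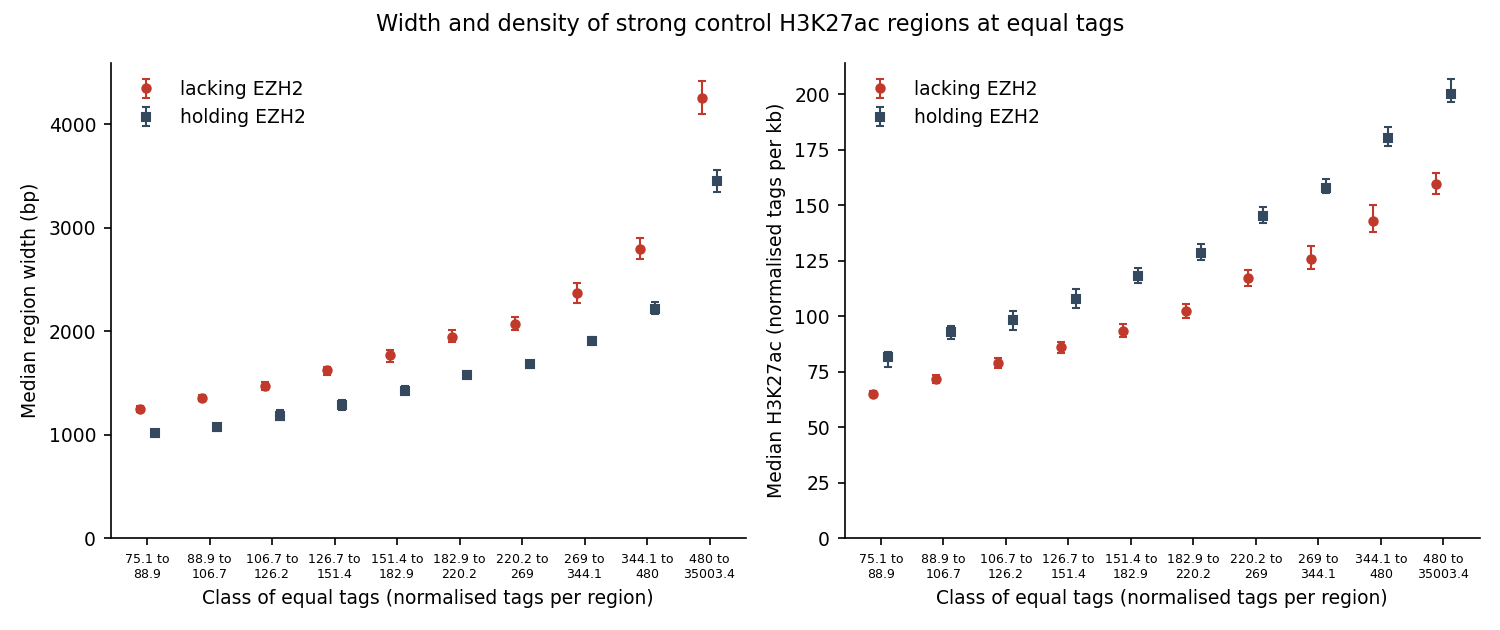
Median width in bp (left) and median H3K27ac in normalised tags per kb (right) of strong control H3K27ac regions lacking EZH2 (circles) and holding EZH2 (squares) in 10 classes of equal tags, with 95% order-statistic intervals over regions. In each class the regions lacking EZH2 were wider, from 1246 against 1017 bp in the lowest class to 4251 against 3448 bp in the highest, and less dense.

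In the lowest class, from 75.1 to 88.9 tags, the median width was 1246 bp (1220 to 1277) without EZH2 and 1017 bp (978 to 1050) with it. In the highest class, from 480 tags upwards, the medians were 4251 bp (4095 to 4419) and 3448 bp (3345 to 3556). The same regions differed in the opposite direction in tags per kb, since density is tags divided by width: 64.9 without EZH2 and 81.4 with it in the lowest class, and 160 and 200.1 in the highest. Over all classes pooled, the median density was 93.6 tags per kb (92.5 to 94.6) in regions lacking EZH2 and 141 (139 to 143) in regions holding it. Width and density come from the control H3K27ac library, whose tags the choice of regions used, and are therefore given as a description.

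With all strong regions pooled, classes of density differed far more in EZH2 than classes of width did. In the class of lowest density among 10, with a median of 54.7 tags per kb, 93.8% of the regions (92.4 to 94.98) lacked EZH2. In the class of highest density, with a median of 235 tags per kb, 32.2% (29.8 to 34.7) did, and the share was lower in each class than in the one before it. Across 10 classes of width the share stayed between 60.0% and 65.7%. Across the 10 classes of tags it fell from 81.4% in the lowest to 40.2% in the highest. The classes of density differed in tags as well, with a median of 97.5 tags in the lowest and 428 in the highest, so their shares do not reflect density alone. The classes of width also differed in tags, with a median of 103.8 in the narrowest and 564 in the widest. Their near-level shares therefore do not reflect width alone.

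**Figure D2:**
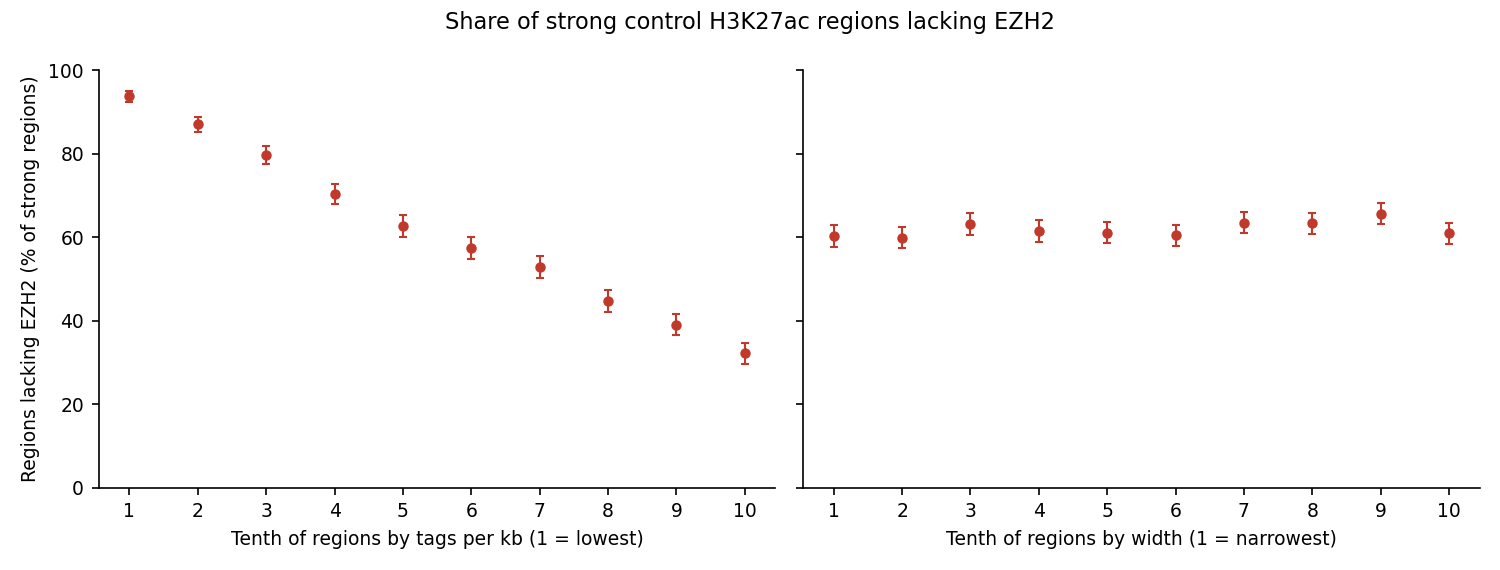
Share of strong control H3K27ac regions lacking EZH2, in percent, in 10 classes by tags per kb (left) and 10 classes by width (right), with 95% exact binomial intervals over regions. The share was 93.8% at the lowest density and 32.2% at the highest, and between 60.0% and 65.7% over the classes of width.

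Among regions of like tags, the widest, which by arithmetic are the least dense, lacked EZH2 most often. Among regions of 106.7 to 151.4 tags, 95.1% (93.0 to 96.7) of the widest of 5 classes, from 1898 to 3391 bp, lacked EZH2. In the narrowest class, up to 1064 bp, 56.9% (52.7 to 61.0) did. From 344.1 tags upwards the shares were 55.3% (51.1 to 59.4) in the widest class and 29.3% (25.6 to 33.2) in the narrowest. By width alone, 889 of the regions lacking EZH2 were under 1000 bp, 4683 were from 1000 to 2000 bp, and 27 were 10000 bp or more. The 53 strong regions of 10000 bp or more were split into 27 without and 26 with EZH2.

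Lacking EZH2 means that no peak was listed, and many listed peaks were themselves weak. The least control EZH2 peak held 5.25 normalised tags. Of the 5121 strong regions holding a control EZH2 peak, 51.4% had no such peak of 10 tags or more, and a further 310 regions held a peak from the shEZH2 list alone. The median H3K27ac density was 139 tags per kb (137 to 142) with a strongest peak under 10 tags and 143 (141 to 146) with one of 10 tags or more, while regions lacking EZH2 had 93.6 tags per kb (92.5 to 94.6). The median width of the same groups was 1693 bp, 1711 bp and 1730 bp. The intervals of both groups holding EZH2 overlapped in density, and that of the regions with no listed peak lay below them. Whether regions with no listed peak held EZH2 below the calling limit was not tested.

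Outside the regions themselves, EZH2 lay at similar short range of both kinds, and farther off in the median from those lacking it. A listed EZH2 peak of either library lay within 1 kb of 315 of the 8882 regions lacking EZH2 (3.55%, 3.17 to 3.95), within 10 kb of 20.6% (19.7 to 21.4) and within 100 kb of 73.9% (73.0 to 74.8). For regions holding EZH2, the nearest further peak, outside the region, was within 1 kb in 4.22% (3.70 to 4.79), within 10 kb in 20.9% (19.9 to 22.04) and within 100 kb in 80.4% (79.3 to 81.4). The median distance was 40.4 kb (38.7 to 42.1) from regions lacking EZH2 and 34.3 kb (32.4 to 36.0) from regions holding it. Up to 10 kb the neighbourhoods thus had like shares with EZH2, and at 100 kb the regions lacking EZH2 had the lower share.

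Strong regions lacking EZH2 had other acetylated regions beside them more often than those holding EZH2, and about as often as regions of all strengths. No other control H3K27ac region lay within 10 kb of 24.9% (24.0 to 25.9) of the regions lacking EZH2 and of 37.2% (35.9 to 38.5) of those holding it, where the share over all control regions was 24.4%. The difference was -12.3 percentage points (-13.9 to -10.7) over all strong regions, -15.9 points (-17.7 to -14.1) at equal tags and -12.4 points (-14.6 to -10.2) at equal tags and width. The mean number of neighbours within 10 kb was 2.41 without EZH2 and 1.60 with it, and the most was 19 and 18. A strong region holding EZH2 lay within 10 kb of 14.4% (13.7 to 15.2) of the regions lacking EZH2, and another such region within 10 kb of 12.4% (11.5 to 13.3) of those holding it, where the share over all control regions was 13.5%. These shares were near each other.

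The X chromosome stood apart from the autosomes. Of 272 strong regions on X, 249 (91.5%, 87.6 to 94.6) lacked EZH2, against 61.5% (60.7 to 62.3) of 14041 on the autosomes. Over control H3K27ac regions of all strengths the gap was smaller, with 96.9% lacking EZH2 on X and 86.5% on the autosomes, and chromosome 13 came next at 91.6%. Among strong regions chromosome 22, the next in order, had 72.8% (68.2 to 77.1), and chromosome 13 had 72.0% (66.1 to 77.5), an interval that overlaps that of chromosome 22. The lowest share was 52.1% (48.3 to 56.0) on chromosome 7, followed by 55.8% (53.3 to 58.2) on chromosome 1, and these intervals also overlap.

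**Figure D3:**
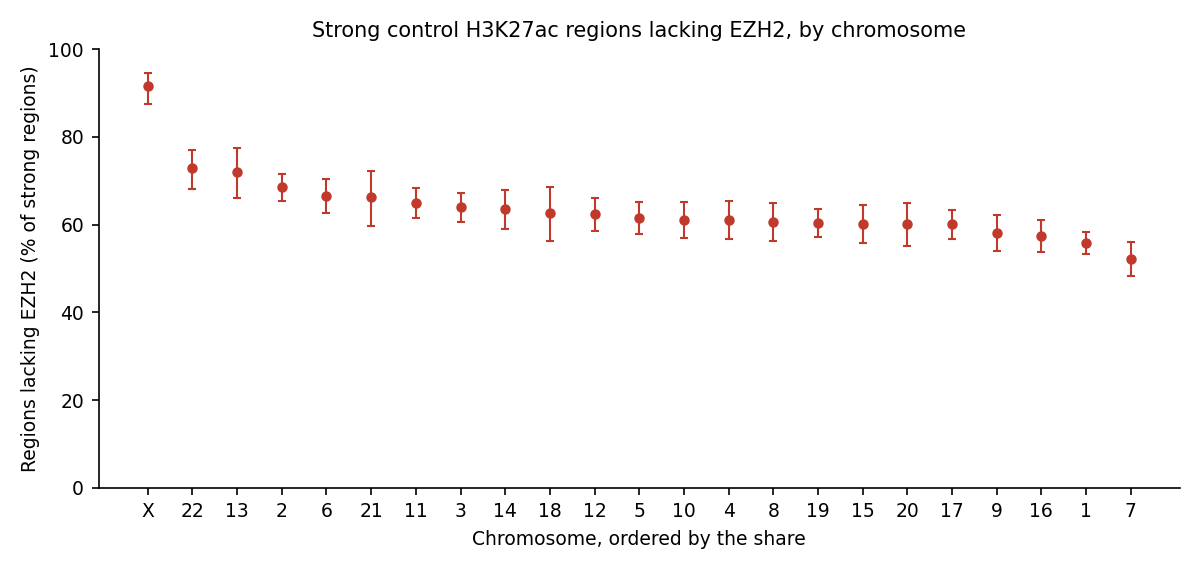
Share of strong control H3K27ac regions lacking EZH2 on each chromosome, in percent, with 95% exact binomial intervals over regions and chromosomes ordered by the share. X, at 91.5%, lies above all autosomes, which run from 52.1% on chromosome 7 to 72.8% on chromosome 22.

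Strong regions on X were weaker than those on the autosomes, with a median of 123 normalised tags on X and 185 on the autosomes, and a median density of 94.3 and 111 tags per kb. At equal tags, autosomal regions lacked EZH2 in 68.6% of cases, and at equal density in 68.3%, so X remained 22.9 and 23.3 percentage points higher, and was the higher in 10 of 10 classes of each kind. The smallest classes held 7 and 6 regions of X. The classes were matched on H3K27ac alone. Whether EZH2 on X fell below the calling limit more often was not tested. The control EZH2 list held 224 peaks on X, of which 17.0% overlapped H3K27ac and 46.9% H3K27me3. On the autosomes it held 22406 peaks, and these shares were 34.5% and 43.8%. The share of EZH2 peaks on H3K27ac was thus lower on X than on the pooled autosomes, and the share on H3K27me3 was not. Single autosomes ran from 21.2% of 619 peaks on H3K27ac on chromosome 18 to 42.4% of 1116 on chromosome 17. Chromosome 18 thus lay nearer to X than to the pooled autosomes, and no interval was computed for these shares.

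H3K27me3 was rarer at strong acetylated regions lacking EZH2 than at those holding it. A control H3K27me3 region touched 45 of 8882 regions lacking EZH2 (0.507%, 0.370 to 0.677) and 119 of 5431 holding it (2.19%, 1.82 to 2.62), where 1.55% of all control H3K27ac regions were touched. By the shEZH2 list of H3K27me3, 56 regions without EZH2 (0.630%, 0.477 to 0.818) and 138 with it (2.54%, 2.14 to 3.00) were touched, against 2.35% of all. That list was called with windows of 1000 bp at a Poisson probability of 0.001, and the control list with 150 bp at a false discovery rate of 0.001. A call needed 9.53 tags per kb in shEZH2 and 26.0 in control, so the higher counts in shEZH2 do not show a gain of H3K27me3. Much of the overlap with control H3K27me3 was repeat-rich sequence around the longest stretch of each chromosome without a listed region, which held 29 of the 45 and 74 of the 119. With that sequence left out, the difference between regions lacking and holding EZH2 was -0.676 percentage points (-0.973 to -0.431), where it was -1.68 (-2.13 to -1.29) with it.

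The strongest region lacking EZH2 was one of these. On chromosome 16, from 46385707 to 46410105, in repeat-rich sequence, H3K27ac was 8829.6 normalised tags in the shEZH2 region and 7944.7 in the control region, and control H3K27me3 covered 24366 of its 24399 bp. A neighbour on chromosome 16, from 46416415 to 46430561, held 2206.7 control tags, lay wholly in H3K27me3, and was part of the same shEZH2 region. The third in order of tags among regions touching H3K27me3 was on chromosome 7, from 56437970 to 56442908, with 741.8 H3K27ac tags in shEZH2 and 715.1 in control. All 3 lay within 2 Mb of their chromosome's longest gap.

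The other 9 of the 10 regions of most tags lay away from such sequence and touched no H3K27me3. On chromosome 17, from 80056472 to 80073644, the region held 4742.5 control tags over 17.2 kb, and the nearest EZH2 peak lay 236 bp from its edge. On chromosome 15, from 89655308 to 89685556, the widest region lacking EZH2 held 4395.6 control tags over 30.2 kb, with the nearest EZH2 peak 23724 bp away. On chromosome 11, from 114034017 to 114050035, a region of 2878.2 control tags over 16.0 kb had no EZH2 peak within 103466 bp. Among the 10 regions of most tags the distance to EZH2 thus ran from 236 to 103466 bp. They were also 9.57 to 30.2 kb wide, where the median of all regions lacking EZH2 was 1730 bp.

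The narrowest regions lacking EZH2 were dense by arithmetic, since each had to hold at least 75.1 tags. On chromosome 12, from 132568869 to 132569130, 262 bp held 76.3 control tags, or 291 per kb. On chromosome 10, from 76586267 to 76586590, 324 bp held 82.6 tags, and an EZH2 peak lay 48 bp away. In 4 of the 5 narrowest, the shEZH2 region spanned 3 control regions, so the short control region shared its shEZH2 region with others. For comparison, the strong region holding EZH2 with most tags was on X, from 114959455 to 115005727, with 33047 tags in shEZH2 and 35003.4 in control.

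After knockdown, H3K27ac was listed at nearly all of these regions. A shEZH2 H3K27ac region overlapped 8881 of 8882 regions lacking EZH2 (99.989%) and 5430 of 5431 holding it (99.982%), where 97.0% of all control regions were overlapped. The exception without EZH2 was on chromosome 10, from 38881765 to 38882171, in repeat-rich sequence, with 88.3 control tags. The shEZH2 regions were called with windows of 1000 bp at a Poisson probability of 0.001 and the control regions with windows of 150 bp at a false discovery rate of 0.001, so a call needed 9.47 tags per kb in shEZH2 and 34.4 in control. A listed region in shEZH2 therefore does not show an equal level. The wider shEZH2 regions also reached further: those over 911 of the regions lacking EZH2 (10.3%, 9.63 to 10.9) held an EZH2 peak of either list.

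Levels were compared in pairs where 1 shEZH2 region overlapped 1 control region and no other. This was so for 3991 regions lacking EZH2 (44.9%), 3218 holding it (59.3%) and 38.6% of all control regions. The median number of control regions under the shEZH2 region was 2 for regions lacking EZH2 and 1 for those holding it. The pairs thus left out more of the regions lacking EZH2, and the ratios cover only those that remained. In the pairs lacking EZH2 the median was 174 normalised tags in shEZH2 (171 to 178) and 153 in control (150 to 157), and the median width 3172 bp in shEZH2 and 1663 bp in control. In the pairs holding EZH2 it was 252 tags in shEZH2 (246 to 258) and 218 in control (213 to 222), over 3038 and 1629 bp. Over all these pairs, tags per region were thus higher and tags per kb lower in shEZH2 for both kinds, and the shEZH2 regions were the wider in both. The direction of tags per region turned in pairs of like width, whose widths were within 25% of each other. Such pairs were 1.08% of the regions lacking EZH2, 1.07% of those holding it and 0.299% of all control regions. Their median control width was 2540 bp without EZH2 and 2980 bp with it, so they were wider than the pairs at large. In 96 such pairs lacking EZH2 the median was 208 tags in shEZH2 (147 to 238) and 227 in control (185 to 303), a median log2 ratio of -0.37 (-0.47 to -0.27). In 58 such pairs holding EZH2 the median log2 ratio was -0.07 (-0.15 to -0.01). Higher tags per region in shEZH2 were not seen in these few pairs. Their choice used the width of the shEZH2 region itself, so they cannot show what width does in the other pairs. Tags per kb were lower there too, with median log2 ratios of -0.63 (-0.71 to -0.49) without EZH2 and -0.34 (-0.38 to -0.25) with it.

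Set against each other within the same pair of libraries, regions lacking EZH2 had the lower ratio of shEZH2 to control. The median log2 ratio of tags per region was 0.14 (0.13 to 0.15) without EZH2 and 0.20 (0.19 to 0.21) with it, a difference of -0.05 (-0.07 to -0.04). The median log2 ratio of tags per kb was -0.78 (-0.79 to -0.77) without EZH2 and -0.68 (-0.69 to -0.67) with it, a difference of -0.10 (-0.12 to -0.08). At equal control tags the differences were -0.10 (-0.11 to -0.08) per region and -0.09 (-0.11 to -0.07) per kb, and at equal tags and width -0.12 (-0.15 to -0.09) and -0.19 (-0.22 to -0.16). In the pairs of like width they were -0.30 (-0.41 to -0.17) and -0.29 (-0.41 to -0.14). The direction was the same in each of these, and the size depended on which pairs were set side by side.

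**Figure D4:**
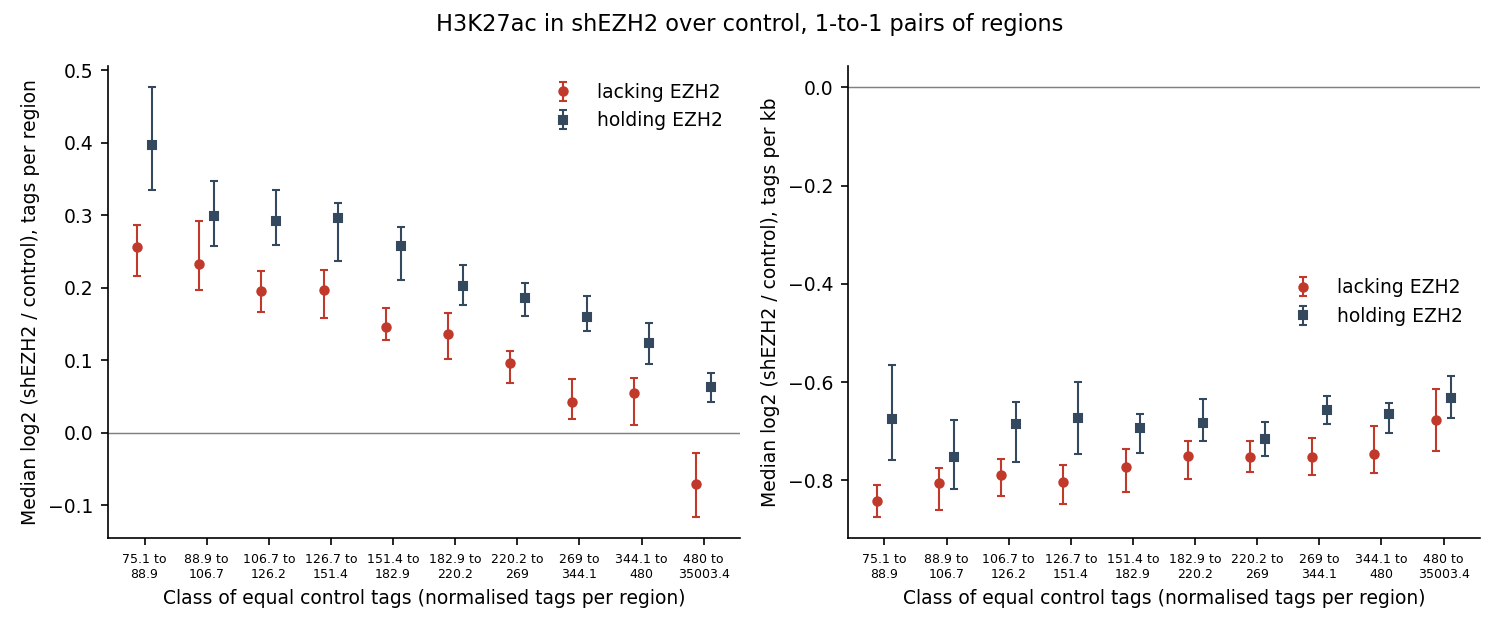
Median log2 ratio of shEZH2 over control H3K27ac, in tags per region (left) and tags per kb (right), for 1-to-1 pairs lacking EZH2 (circles) and holding EZH2 (squares) in 10 classes of equal control tags, with 95% order-statistic intervals over regions. The regions lacking EZH2 lie lower in each class, at 0.26 against 0.40 per region in the lowest class and -0.07 against 0.06 in the highest.

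By counts, 1282 of 3991 pairs lacking EZH2 (32.1%, 30.7 to 33.6) and 631 of 3218 holding it (19.6%, 18.2 to 21.0) had fewer tags per region in shEZH2, where 13.6% of all 21975 pairs did. At least 2-fold fewer tags per kb were found in 1045 pairs lacking EZH2 (26.2%, 24.8 to 27.6) and 598 holding it (18.6%, 17.3 to 19.97), where 53.2% of all pairs did. Strong regions were selected on control tags, which are the denominator of these ratios, and the ratio of tags per region was lower in the classes of more control tags, so nothing is read from the strong pairs against all pairs. Tags per region were at least 2-fold lower in shEZH2 in 25 pairs lacking EZH2 (0.626%) and 9 holding it (0.280%), where 0.378% of all pairs were. They were at least 2-fold higher in 28 pairs lacking EZH2 (0.702%) and 13 holding it (0.404%), where 37.4% of all pairs were.

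**Figure D5:**
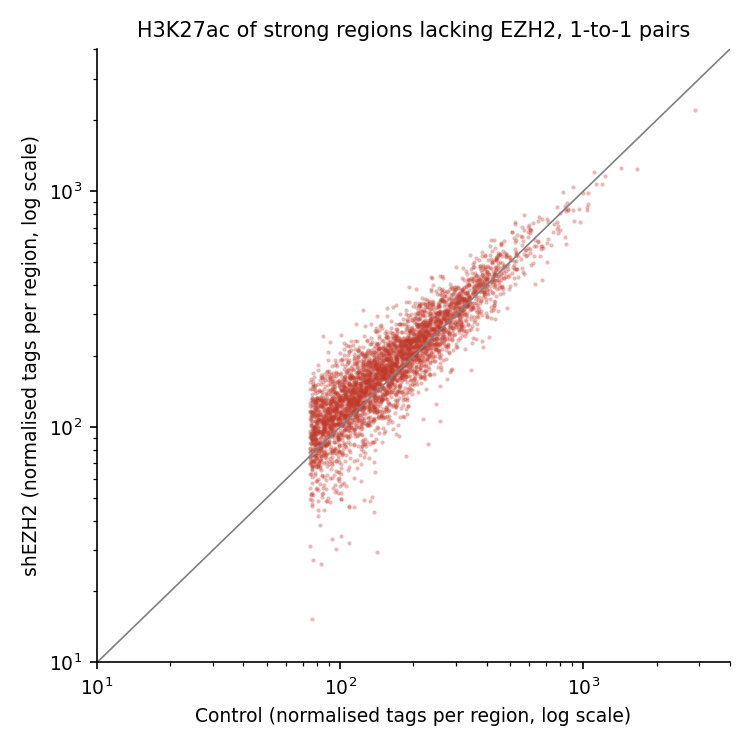
Normalised H3K27ac tags per region in shEZH2 (vertical) against control (horizontal), both on log scales, for the 3991 strong regions lacking EZH2 in 1-to-1 pairs; the line marks equal values. Most points lie close to the line, with a median of 174 tags in shEZH2 and 153 in control.

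The extremes of the ratio named here, among pairs lacking EZH2, all held fewer control tags than the median of 153 in such pairs. Some lay close to the minimum of 75.1 tags. The lowest ratio was in a region of 721 bp on chromosome 1, 102700266 to 102700986, with 15.3 tags in shEZH2 and 76.8 in control, a log2 ratio of -2.33. On chromosome 17, from 38573592 to 38574954, there were 32 tags in shEZH2 and 109 in control, a log2 ratio of -1.77. The shEZH2 regions there were 1274 and 2069 bp wide, and the control regions 721 and 1363 bp. Between them in rank, a region on chromosome 2, 10261757 to 10263842, had 29.3 tags over 1795 bp in shEZH2 and 141.1 tags over 2086 bp in control, a log2 ratio of -2.27. The shEZH2 region was thus wider in 2 of these 3 and narrower in the third. The nearest EZH2 peak lay 387670 bp from the region on chromosome 1, 18819 bp from that on chromosome 17 and 881 bp from that on chromosome 2. With EZH2 peaks within 1 kb counted, the region on chromosome 2 would not be among those lacking EZH2.

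At the other end, the highest ratio was on chromosome 15, from 21915036 to 21916476, in repeat-rich sequence, with 243.5 tags in shEZH2 and 84.9 in control, a log2 ratio of 1.52. On chromosome 17, from 74441825 to 74443656, there were 230 tags in shEZH2 and 90.6 in control, and on chromosome 10, from 93729258 to 93730543, 311.6 and 123.9. Per kb these 3 regions were lower in shEZH2, with log2 ratios of -0.13, -0.55 and -1.20, since the shEZH2 regions were 4521, 6821 and 7434 bp wide and the control regions 1441, 1832 and 1286 bp. The sign of the ratio thus differed between tags per region and tags per kb in all 3.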

How the data were processed

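The submitters' processing notes name BWA 0.6.1, HOMER 4.1 and the build hg19. The commands in the file headers name 1 tag directory each and no input. The deposited signal is the normalised tag count of each region, which the headers put on a scale of 10000000 tags per library. The caller's score, as deposited by the authors, served only to split a list. The clonal fold, a ratio deposited by the authors, is quoted once, and the fold over local background was not used here. The width, in bp, and tags per kb were computed here as end minus start plus 1.

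Overlap meant at least 1 shared bp. Intervals are Clopper-Pearson (exact binomial) for shares, order-statistic for medians and Newcombe for unweighted differences of shares. Unweighted differences of medians combined the limits of the medians in the same way. The weighted width ratio and the weighted differences have normal-approximation intervals, with standard errors taken from the widths of the class intervals. Comparisons at equal tags used 10 classes of equal size, each with 5 classes of width where stated, weighted by regions lacking EZH2. Sequence within 2 Mb of the longest gap between listed regions of a chromosome was called repeat-rich. Overlaps equalled those of bedtools 2.31.1 in 4 of 4 lists, and the weighted estimates were tested on simulated data.

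Groups came from the titles. Of 9 samples, 3 (those of tagged EZH2 and the one titled CTRL R1881) were not analysed here. Named regions were those of most tags, the widest and narrowest, those at the minimum, those with extreme ratios in 1-to-1 pairs, those not called in shEZH2 and those touching H3K27me3. Gene lists were not computed, as no hg19 annotation was used here. The regions and tests were chosen with earlier results of these data known. Classes of density, the X chromosome, distances, neighbours and weak EZH2 peaks were added after the data were seen. Computation used scipy 1.17.1, pandas 2.3.3 and numpy 2.4.6 under Python 3.11.15, and plots matplotlib 3.10.9.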

Additional observations from a re-analysis of the deposited data

How the results depend on the processing

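Of 57 alternatives, none reversed a difference whose interval lay apart from 0, and 13 moved a value beyond its reported interval. A reversal could not be scored for the number of regions (4 alternatives), the share lacking EZH2 (6) or the difference in the share called (9). The number of regions had no interval, and the interval of the difference in the share called held 0. The log2 ratio of widths at equal tags stayed between 0.30 and 0.33 under 8 alternatives, and the number of regions lacking EZH2 between 8567 and 9192 under 4. The share of strong regions lacking EZH2 was 64.2% with the control EZH2 list only, 59.9% with EZH2 peaks within 1 kb counted, 58.5% at a minimum of 100 tags and 67.1% at 50 tags. The difference in the share called in shEZH2 was -4.08 points against the upper 50% of that list by score, and close to 0 otherwise. The difference in the log2 ratio of tags per region was -0.027 at 50 tags, -0.297 in pairs of like width, -0.0965 at equal tags and -0.118 at equal tags and width. Per kb it was -0.291 in pairs of like width and -0.189 at equal tags and width. The difference in the share touching control H3K27me3 was -2.16 points at 50 tags and -0.676 points without repeat-rich sequence. The cause of these shifts was not tested. No paired analysis was possible because each group held 1 library. Weighting by tags and width together, by tags for the shares called and touching H3K27me3, and a width comparison with regions holding a control EZH2 peak alone were chosen after seeing the data. The depth of the EZH2 libraries limits which regions can be called lacking, since the weakest listed control peak held 5.25 normalised tags.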

Other observations

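The deposited clonal fold, which the headers describe as the fold under the expected unique tag positions, had a median of 0.89 in strong regions lacking EZH2 and 0.89 in those holding it, and 90% of the values lay between 0.78 and 1.04 without EZH2 and between 0.78 and 1.02 with it. The region on chromosome 10 from 38881765 that was not listed in shEZH2 had a clonal fold listed at 0.

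Regions lacking EZH2 shared shEZH2 regions with one another: the 7882 shEZH2 regions that overlapped one included 761 (9.65%) that overlapped more than 1. The median number of control H3K27ac regions under the shEZH2 region was 2 for regions lacking EZH2 and 1 for those holding it, and the most for a region lacking EZH2 was 37.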
